A study of Mus musculus with 2 samples.

Results

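The VEGF and placental growth factor system was described in the RPE-choroid of mice with and without the aryl hydrocarbon receptor (AhR), as 10 named rows of the deposited count table. The members were 5 ligands (Vegfa, Pgf, Vegfb, Vegfc and Figf), 3 receptor tyrosine kinases (Flt1, Kdr and Flt4) and 2 neuropilin co-receptors (Nrp1 and Nrp2). They were taken by name from the 23420 gene rows, and all 10 were among the 15796 genes with enough reads to be tested. RPE-choroid is the retinal pigment epithelium (RPE), the pigmented layer beneath the photoreceptors, together with the vascular coat that feeds it. The knockout-labelled group was AhR -/- of strain B6.129-AhRtm1Bra/J, with a targeted Ahr allele. The control group was wild-type C57BL6/J, so an effect of the allele and one of another difference between the strains cannot be told apart. All mice were 11 to 13 months old and untreated, with 3 animals in each of the 2 groups. Each animal gave 1 library of polyA-selected RNA, for which tissue of 2 eyes was pooled after the front of the eye and the retina had been taken off.

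VEGF ligands are secreted dimers that bind receptor tyrosine kinases on endothelial cells. VEGF-A acts mainly through VEGFR2 (Kdr) to drive endothelial growth, survival and permeability, while VEGFR1 (Flt1) binds VEGF-A, VEGF-B and placental growth factor and, in a soluble form, holds VEGF-A back from VEGFR2. VEGF-C and VEGF-D signal through VEGFR3 (Flt4), best known from lymphatic vessels and from sprouting or fenestrated blood vessels. In the eye the RPE secretes VEGF-A toward the choriocapillaris, the fenestrated capillary bed that depends on it, and blockade of VEGF-A is the main treatment of neovascular macular degeneration. The comparison asks which of these genes differ in RNA level when AhR, a ligand-activated transcription factor, is lost.

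Depth, as the sum over all genes, was 18058725 to 28692624 reads. Ahr itself had a higher level in CPM, the count scaled to a common library size, in the knockout-labelled libraries (41.4, 45.4 and 40.6) than in the wild-type libraries (19.7, 20.2 and 26.0), with a log2 difference of 0.95 (SE 0.16, adjusted p = 0.0991 by edgeR's quasi-likelihood test). A count over the whole gene includes exons outside the targeted part and is no test of the labels, on which every direction given here rests. Reads that mapped to more than 1 place were 22.9% to 25.1% of the table's reads in the knockout-labelled libraries and 18.7% to 19.4% in the wild-type libraries. Xist and Y-linked counts read as female in animal 1 of each group and as male in the other animals. Across all tested genes the test called 8 genes at an adjusted p under 0.05, which is 0.0506% of them, and 2238 genes (14.2%) had an unadjusted p under 0.05.

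None of the 10 members passed that threshold with edgeR's quasi-likelihood test. Pgf and Flt4 had an unadjusted p under 0.05, both with lower values in the knockout-labelled libraries, where 6.62% of all tested genes fell on that side. These were also the members whose groups did not overlap, both lower in the knockout-labelled libraries, against 9.96% of all tested genes (20.0% in either direction). Log2 fold changes, given as knockout-labelled over wild type, were below 0 for 8 members, with a median of -0.22 over the 10 against 0.01 over all tested genes. Where DESeq2 or the edgeR exact test replaced the quasi-likelihood test, 1 member was called, Pgf, against a background of 3.25% and 2.26% of genes, and limma-voom called 0. In bulk tissue, fewer cells of a type and less RNA per cell cannot be told apart.

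**Figure D1:**
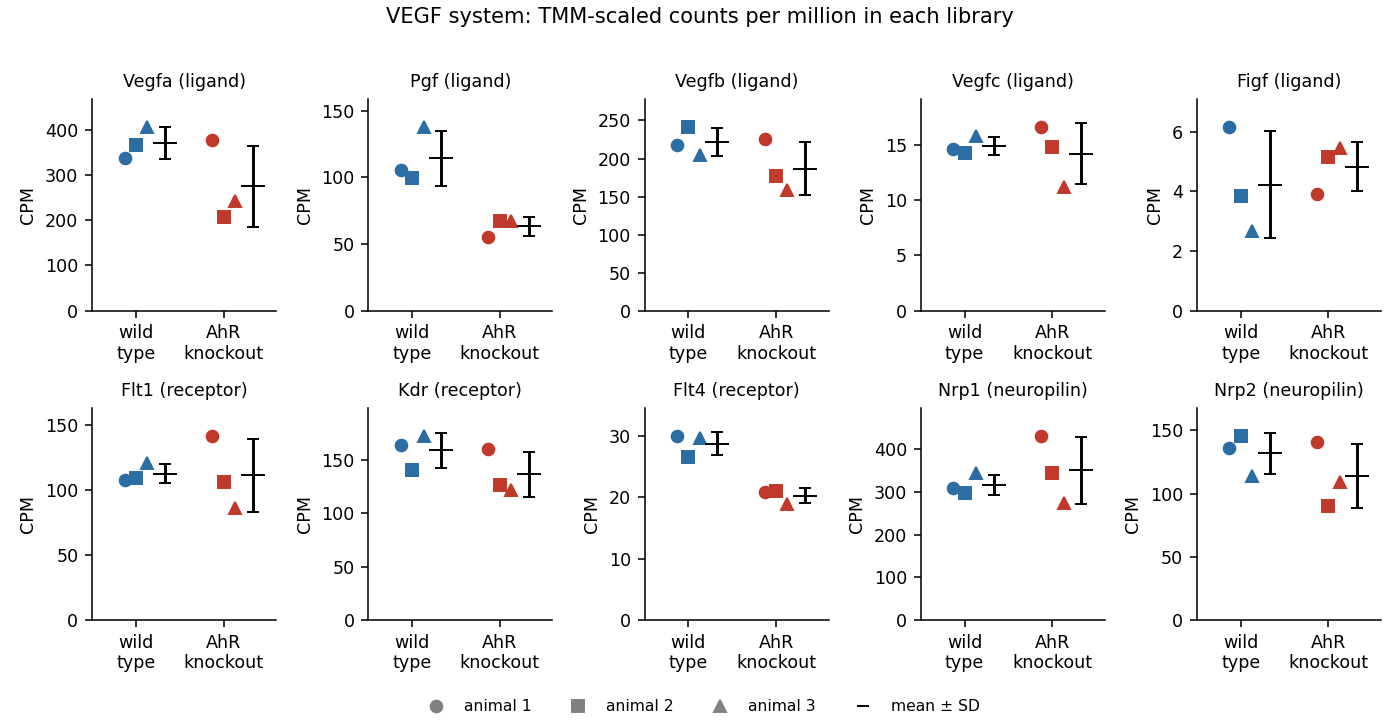
CPM of the 10 members in each library, with 1 point per animal (marker shape for its number) and a black bar for the group mean ± SD. The knockout-labelled points lie wholly below the wild-type points for Pgf (55.0 to 67.5 against 99.6 to 138 CPM) and Flt4 (18.9 to 21.1 against 26.5 to 30.0 CPM), and the groups overlap for the other members.

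Pgf, which encodes placental growth factor, a ligand of VEGFR1 that does not bind VEGFR2, lies on chromosome 12 at 85166635 to 85177790 on the minus strand (GRCm38). It stood at 55.0, 67.3 and 67.5 CPM in the knockout-labelled libraries and at 105, 99.6 and 138 CPM in the wild-type libraries. All 3 knockout-labelled animals were below the lowest wild-type animal, and animal 1 was the lowest of them. The means were 63.3 ± 7.15 and 114 ± 20.7 CPM (SD, n = 3 each). The log2 fold change was -0.85 (SE 0.16, 95% interval -1.20 to -0.50), a ratio of 0.554, with an adjusted p of 0.126 by edgeR's quasi-likelihood test. Ranked by that test's p-value, Pgf was number 43 of the 15796 genes. DESeq2 gave an adjusted p of 0.000577 and the edgeR exact test one of 0.00126, and over all alternatives Pgf's adjusted p ran from 0.000577 to 0.463 and its log2 fold change from -1.06 to -0.67. In the authors' deposited table of edgeR results, where 2.37% of 16561 genes had an FDR under 0.05, Pgf had a log2 fold change of -0.87 and an FDR of 0.00552. Ahr lies on the same chromosome, 49.63 Mb away from Pgf.

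Vegfa, the main angiogenic ligand and the member secreted by the RPE, lies on chromosome 17 at 46016993 to 46032369 on the minus strand. It stood at 376, 207 and 241 CPM in the knockout-labelled libraries and at 337, 367 and 407 CPM in the wild-type libraries. Knockout-labelled animal 1 was inside the wild-type range, and animals 2 and 3 were below it. The means were 275 ± 89.3 and 370.0 ± 35.1 CPM (SD, n = 3 each), the log2 fold change was -0.43 (SE 0.22, 95% interval -0.92 to 0.06) and the adjusted p by edgeR was 0.409. The call depended on 1 library. Without knockout-labelled animal 1, edgeR gave Vegfa a log2 fold change of -0.72 (adjusted p = 0.0318) and Pgf one of -0.76 (adjusted p = 0.0353), in a fit that called 4.95% of genes. Over its alternatives Vegfa's adjusted p ran from 0.0249 to 0.994.

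The other ligands overlapped between the groups. Vegfb, whose product binds VEGFR1 and is tied to tissue survival more than to vessel growth, was at 225, 176 and 158 CPM in the knockout-labelled and 218, 242 and 205 CPM in the wild-type libraries. Again animal 1 was inside the wild-type range and animals 2 and 3 were below it, with a log2 fold change of -0.25 (SE 0.16, adjusted p = 0.519 by edgeR). Vegfc, a lymphangiogenic ligand, was at 16.6, 14.8 and 11.2 CPM against 14.6, 14.3 and 15.8 CPM. Its knockout-labelled animals lay above, within and below the wild-type range, with a log2 fold change of -0.07 and a 95% interval of -0.54 to 0.40. Figf, the older symbol of Vegfd, which encodes VEGF-D, was at 3.90, 5.16 and 5.44 CPM against 6.17, 3.84 and 2.66 CPM. It rested on 77 to 164 reads per library. Its log2 fold change of 0.19 had a 95% interval of -0.69 to 1.08, so its direction was not resolved at this depth and spread.

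Among the receptors, Flt4 was the member with separate groups. It encodes VEGFR3, the receptor of VEGF-C and VEGF-D, and lies on chromosome 11 at 49609263 to 49652739 on the plus strand. It stood at 20.8, 21.1 and 18.9 CPM in the knockout-labelled libraries and at 30.0, 26.5 and 29.6 CPM in the wild-type libraries. The 3 knockout-labelled values sat close together and all were below the lowest wild-type value. The means were 20.2 ± 1.22 and 28.7 ± 1.90 CPM (SD, n = 3 each), with a log2 fold change of -0.50 (SE 0.15, 95% interval -0.84 to -0.17) and an adjusted p of 0.214 by edgeR. The authors' deposited table gave Flt4 a log2 fold change of -0.51 and an FDR of 0.354. No alternative called Flt4, and its adjusted p ran from 0.101 to 0.847. Of the marker genes fixed for lymphatic endothelium, Ccl21a was at 0 in all 6 libraries, and the list summed to 400 to 495 CPM in the knockout-labelled and 401 to 448 CPM in the wild-type libraries, mostly Pdpn and then Prox1. The sum is thus mainly a reading of Pdpn. Log2 fold changes were 0.04 for Pdpn, -0.22 for Prox1 and 0.68 for Lyve1, each with overlapping groups.

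Kdr encodes VEGFR2, the main signalling receptor for VEGF-A, and lies on chromosome 5 at 75932827 to 75978458 on the minus strand. It stood at 161, 127 and 122 CPM in the knockout-labelled and 164, 141 and 173 CPM in the wild-type libraries. Animal 1 was inside the wild-type range and animals 2 and 3 were below it, and the log2 fold change was -0.22 (SE 0.15, 95% interval -0.56 to 0.12, adjusted p = 0.542 by edgeR). Flt1, the decoy and signalling receptor VEGFR1 on the same chromosome at 147561604 to 147726011, was at 142, 107 and 86.4 CPM against 108, 109 and 121 CPM. Its animal 1 was above the wild-type range and animals 2 and 3 below it, and the log2 fold change was -0.02 with a 95% interval of -0.41 to 0.38. Counts per gene do not separate soluble from membrane-bound Flt1, or the splice forms of Vegfa that differ in matrix binding.

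The neuropilins, which hold VEGF-A and class 3 semaphorins and present VEGF-A to VEGFR2 (Nrp1) or favour VEGF-C and VEGFR3 (Nrp2), overlapped between the groups. Nrp1 was at 432, 345 and 275 CPM in the knockout-labelled and 310, 299 and 344 CPM in the wild-type libraries. Its animals 1 and 2 were above the wild-type range and animal 3 below it, with a log2 fold change of 0.14 (SE 0.18, 95% interval -0.26 to 0.54). A microRNA gene, Mir1903, covers 80 exon bases of Nrp1 on the same strand and has a row of its own. Reads there could have been set aside as ambiguous. Nrp2 was at 141, 90.5 and 110 CPM against 136, 146 and 114 CPM. Its animal 1 was inside the wild-type range and the others below it, with a log2 fold change of -0.22 (SE 0.17, 95% interval -0.61 to 0.18).

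**Figure D2:**
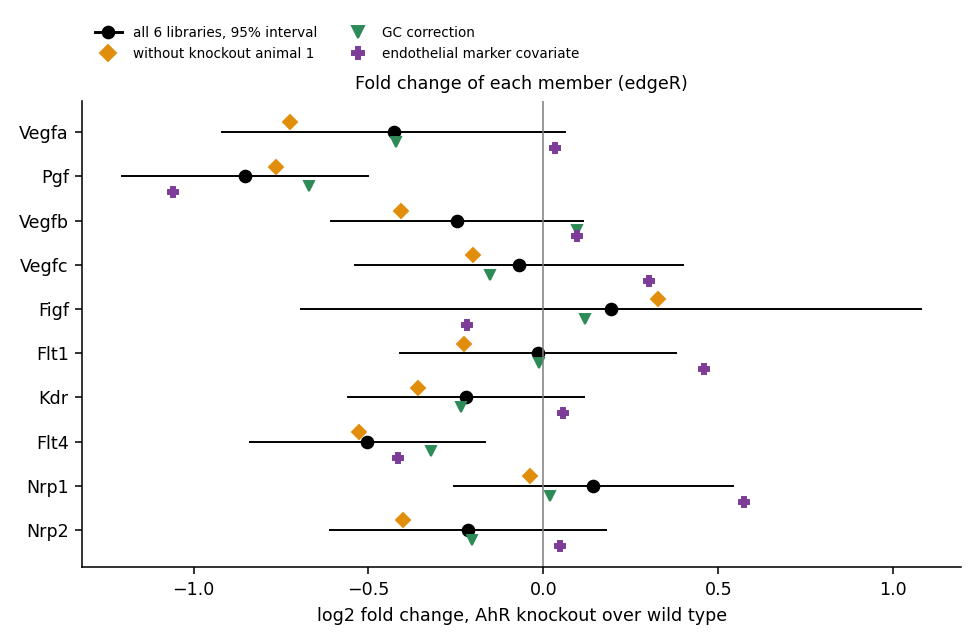
Log2 fold change of each member, knockout-labelled over wild type, from the edgeR fit across all genes, with a line for the 95% interval. Coloured symbols give the same value without knockout-labelled animal 1, after GC correction and with the blood endothelium markers as covariate. The intervals of Pgf (-1.20 to -0.50) and Flt4 (-0.84 to -0.17) lie below 0, and those of the other 8 members cross it. These intervals are not adjusted for the number of genes tested.

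The knockout-labelled animals differed among themselves. Of the 10 members, animal 1 was below the wild-type range in 2, within it in 5 and above it in 3. Animal 2 was below the range in 7 members and animal 3 in 9. The share of all tested genes outside the range was not counted for each animal. These counts therefore show no trait particular to the system. Relative to the wild-type mean, on the log2 CPM scale, Pgf was at -1.03, -0.74 and -0.74 in animals 1, 2 and 3, and Flt4 at -0.45, -0.43 and -0.59. Vegfa by contrast was at 0.03, -0.83 and -0.61, and Kdr at 0.02, -0.32 and -0.38. Pgf and Flt4 were below the wild-type range in each animal, whereas Vegfa, Vegfb, Kdr and Nrp2 were below the wild-type range in animals 2 and 3 and inside it in animal 1.

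Markers of several cell types also differed between these animals. The 15 blood endothelium markers, led by Plvap and Cldn5 in level, had a median log2 fold change of -0.40, with 12 of 15 below 0 and 7 lower at an unadjusted p under 0.05 (background 6.62% lower). None of them was at 0 in any library. Their summed CPM was 1186, 860.0 and 745 in knockout-labelled animals 1, 2 and 3, against 1161 to 1209 in wild type. Their mean log2 CPM was 5.62, 5.31 and 5.08 in these animals, against 5.69 to 5.72 in wild type, without overlap. The 10 RPE markers, led by Ttr and Rgr, summed to 39294, 23530 and 25775 CPM against 31101 to 41261. In this sum animals 2 and 3 were again below the wild-type range. Of the 10, 7 had log2 fold changes below 0 and 3 above 0, with a median of -0.28. Lrat was inside its wild-type range (510 to 590 CPM) in animals 2 and 3, at 530 and 535 CPM. Tyrp1 was too, at 1979 and 2278 against 1472 to 2369 CPM. The 7 corneal and conjunctival epithelium markers, led by Krt5 and Krt12, summed to 2340, 12616 and 9656 CPM against 2006 to 4611, and all 7 had log2 fold changes above 0. Relative to the wild-type mean, the mean log2 CPM of the fibroblast markers was at -0.32, -0.30 and -0.32 in animals 1, 2 and 3. The 6 of them, led by Dcn and Col1a2, summed to 7824 to 8347 CPM against 9016 to 10994 CPM, with 5 of 6 log2 fold changes below 0, from -1.17 for Col1a1 to 0.33 for Lum, and a median of -0.16. Their part in the values of Pgf and Flt4 was not tested. The 9 pericyte and smooth muscle markers, led by Acta2 and Pdgfrb, summed to 766 to 1011 CPM against 1029.5 to 1175 CPM, with 8 of 9 below 0. Animal 1 stood apart in red cell transcripts, with 2 tested markers and 1060 CPM against 55.7 and 77.1 CPM in animals 2 and 3 and 4.29 to 33.7 CPM in wild type.

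**Figure D3:**
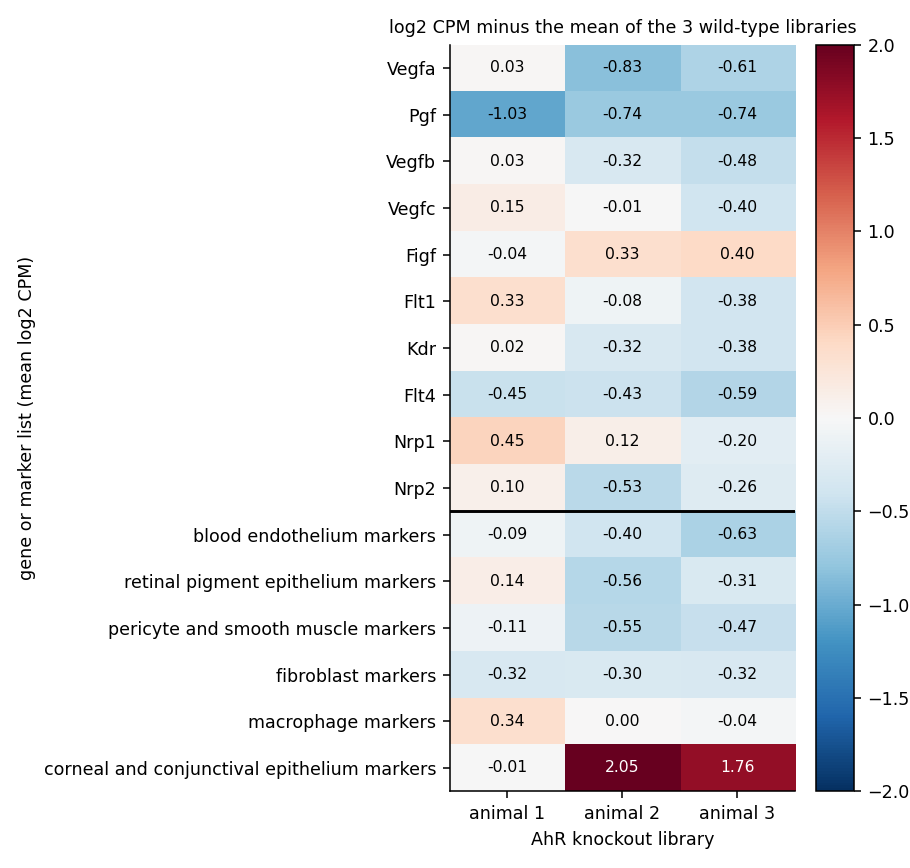
Difference of each knockout-labelled animal from the wild-type mean, in log2 CPM, for the members and for the mean of each marker list. Pgf and Flt4 are below 0 in all 3 columns, while Vegfa, Kdr and the RPE markers are near or above 0 in animal 1 and below 0 in animals 2 and 3, where the corneal and conjunctival markers are at 2.05 and 1.76.

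The mean log2 CPM of 3 of these marker lists was also added to the model as a covariate, 1 list at a time, and the fibroblast and pericyte lists were not. With the blood endothelium markers as covariate the log2 fold change of Pgf was -1.06, that of Flt4 -0.42 and that of Vegfa 0.03. The adjusted p-values were 0.463, 0.847 and 0.994 by edgeR. The mean log2 CPM of these markers did not overlap between the groups, so this fit cannot tell genotype and marker level apart. With the RPE markers as covariate, an alternative chosen after seeing the data, Pgf was at -0.99 (adjusted p = 0.0400), Flt4 at -0.52 (adjusted p = 0.312) and Vegfa at -0.23 (adjusted p = 0.640 by edgeR). With the corneal and conjunctival markers the values of Pgf, Flt4 and Vegfa were -0.97, -0.52 and -0.08. Without a covariate they were -0.85, -0.50 and -0.43. Fold changes also followed the GC content of the transcripts. The median log2 fold change ran from 0.17 in the tenth of genes with the lowest GC to -0.26 in the tenth with the highest. Pgf (56.4% GC) and Flt4 (56.6% GC) lie in the ninth of these groups, whose median was -0.17. After a correction for GC in each library Pgf was at -0.67 and Flt4 at -0.32, with adjusted p-values of 0.242 and 0.445 by edgeR. In these corrected values 1 of the 10 members had groups that did not overlap. The share of all tested genes without overlap after this correction is not given here, so that count has no background.

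Ratios were also taken between genes of the same library, as differences in log2(CPM + 0.5). Of 11 ratios, 3 had groups that did not overlap, which gives the smallest two-sided exact permutation p of 0.1 that 3 against 3 animals allow (0.314 after Benjamini-Hochberg adjustment over the 11). The log2 ratio of Flt4 to Kdr was -2.92, -2.56 and -2.66 in the knockout-labelled and -2.43, -2.39 and -2.53 in the wild-type libraries. Flt4 relative to Kdr was thus lower in each knockout-labelled animal than in any wild-type animal. The ratios were not corrected for GC content, which was 56.6% for Flt4 and 49.4% for Kdr. After GC correction the log2 fold changes were -0.32 for Flt4 and -0.23 for Kdr, against -0.50 and -0.22 without it. Relative to the mean log2 CPM of the endothelial markers, Flt1 was higher by 0.33 and Nrp1 by 0.49 in the knockout-labelled group, again without overlap. On their own, Flt1 had a log2 fold change of -0.02 and Nrp1 one of 0.14, both with overlapping groups. The median of the endothelial markers was -0.40, so these ratios carry the lower marker values. Flt4 relative to these markers differed by -0.12 and overlapped (exact permutation p = 0.5), and Kdr differed by 0.14 (exact permutation p = 0.2). The log2 ratio of Pgf to Vegfa was -2.76 in knockout-labelled animal 1, below every other library, and -1.62 and -1.83 in animals 2 and 3, against -1.88 to -1.56 in wild type.

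Levels of different genes were compared per length, as RPKM, the CPM divided by the length of the merged exons in kilobases. In wild-type libraries Vegfb was at 138 ± 11.7 RPKM, Vegfa at 86.3 ± 8.20 and Pgf at 39.4 ± 7.15 (SD, n = 3 each). Nrp1 followed at 32.4 ± 2.39 RPKM, its range overlapping that of Pgf, and then Kdr at 17.65 ± 1.82 and Nrp2 at 11.1 ± 1.36. Flt1 was at 8.36 ± 0.53, Vegfc at 6.09 ± 0.33, Flt4 at 3.49 ± 0.23 and Figf at 1.75 ± 0.74 RPKM. Apart from Pgf and Nrp1, the ranges of neighbours in this order were separate. By these wild-type means the VEGFR1 ligands were the highest members per length and the VEGFR3 axis (Vegfc, Flt4 and Figf) the lowest. In the knockout-labelled libraries Nrp1 (35.8 ± 8.04 RPKM) came before Pgf (21.8 ± 2.46 RPKM), and the rest of the order was the same. With the longest transcript in place of merged exons, Nrp1 was at 87.1 and Pgf at 54.9 RPKM in wild type, so their order depends on the length used. By that length Nrp1 (96.2 RPKM) also came before Vegfa (79.7 RPKM) in the knockout-labelled means.

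**Figure D4:**
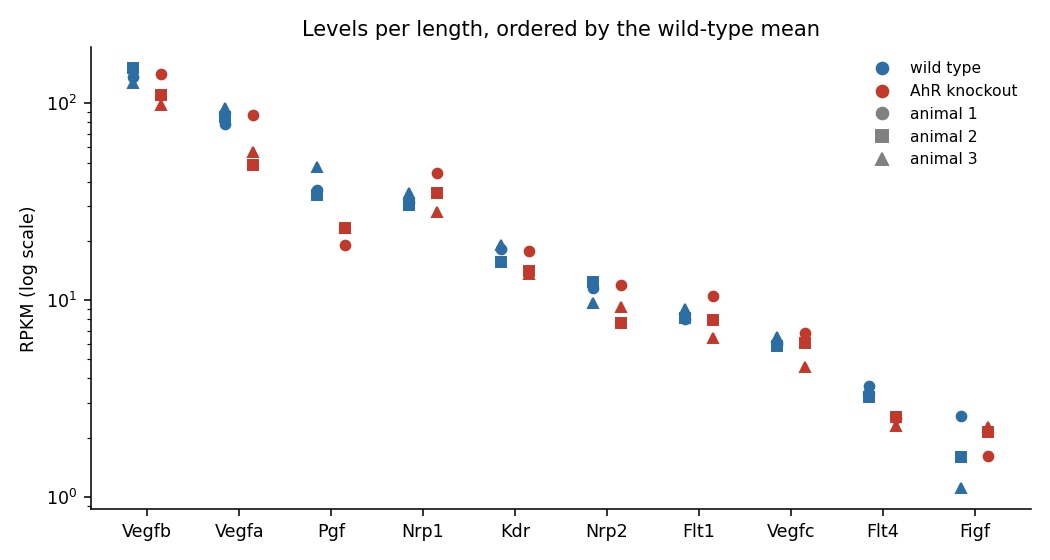
RPKM of the 10 members by library on a log axis, in the order of the wild-type means, with 1 point per animal. By merged exon length Vegfb and Vegfa lead in both groups and Figf is lowest. Pgf and Nrp1, neighbours in this order, change places in the knockout-labelled libraries.

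The DNA upstream of the members was searched for GCGTG, the core to which AhR binds with its partner ARNT, on both strands. RefSeq (GRCm38.p6) gave 12 windows of 300 bases, 250 before and 50 after a start site, for the 10 members. GCGTG was present in 7 windows, against 32.4% of all 32851 RefSeq windows of this length. ACGTG, a form of the core bound by hypoxia-inducible factors, was present in 1, against 19.6%. The search does not tell which factor would bind a copy of either core. These windows had 42.0% to 75.3% GC, and the share over all promoters was not matched for that. Of the 10 copies of GCGTG, 1 (in Nrp2) fitted the longer AhR element TNGCGTG, found in 5.07% of all windows. The copies near Pgf, Vegfa, Vegfb, Flt1, Nrp1 and Nrp2 are shown with 12 bases on each side, 5′ to 3′ on the strand of the gene, with GCGTG or its reverse complement in capitals, so that the copy near Pgf, the member with the lowest log2 fold change, can be read beside others. The positions count from the start site. Pgf is at -124 (chr12:85177421-85177449, minus strand), Vegfa at -218 from its second start site (chr17:46025365-46025393, minus strand) and the 2 in Vegfb at -237 (chr19:6987872-6987900, minus strand) and -81 (chr19:6987716-6987744, minus strand). Flt1 is at -184 (chr5:147726179-147726207, minus strand), Nrp1 at -166 (chr8:128358895-128358923, plus strand) and the 2 in Nrp2 at -207 (chr1:62703098-62703126, plus strand) and -160 (chr1:62703145-62703173, plus strand).
Pgf: gccctgcggggtCACGCgcactcaggtct
Vegfa: aagccctggagtGCGTGcccacgtcagag
Vegfb at -237: ggtccttcaggtCACGCatctcctcaccc
Vegfb at -81: ccggtggggagcGCGTGtttaggtcacat
Flt1: ctagcgccaccgCACGCgcgctctggccc
Nrp1: caaccgggaaagCACGCggagagaaactt
Nrp2 at -207: ccgcacgaaggtGCGTGgggcgggaggga
Nrp2 at -160: ggcggcagggttGCGTGgcaccttaactt
The region upstream of Kdr (chr5:75978459-75978705, minus strand, positions -250 to -4) is shown whole because it holds 2 copies, at -131 and -89, also in capitals.
Kdr: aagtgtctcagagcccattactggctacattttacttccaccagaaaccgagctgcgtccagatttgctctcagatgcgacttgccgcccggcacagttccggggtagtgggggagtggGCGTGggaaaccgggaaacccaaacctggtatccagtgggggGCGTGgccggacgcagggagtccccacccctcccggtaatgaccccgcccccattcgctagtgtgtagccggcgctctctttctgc
The windows of Flt4, Vegfc and Figf, the first of Vegfa and the second of Pgf held neither core. A copy of these letters is a description of the sequence and not a binding site. Copies were present upstream of members whose groups overlapped (Vegfa, Vegfb, Kdr, Flt1, Nrp1 and Nrp2) as well as of Pgf, and none was in the window of Flt4.

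Genes around the system were read from 6 lists, of which no member was called by edgeR's quasi-likelihood test. Of 12 neuropilin ligands and plexins, the semaphorins and their receptors, 3 were lower and 0 higher at an unadjusted p under 0.05 (background 6.62% lower and 7.55% higher), with a median log2 fold change of -0.20. By level Sema3b was at -0.22, Sema3c at 0.12 and Plxna1 at -0.38. Of 16 genes induced by VEGF in cultured endothelium, 5 were lower and 0 higher, with a median of -0.25. The tissue factor gene F3 was at 0.09, the early response factor Egr1 at -0.73 and the surface antigen Cd34 at -0.46.

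The 25 tested genes of signalling inside the cell were balanced, with 3 higher and 3 lower and a median of 0.00. Rac1, a GTPase of cell migration, was at 0.39, the MAP kinase gene Mapk3 at -0.53 and Pik3r1, a regulatory subunit of PI3 kinase, at -0.17. The 10 phosphatases and co-receptors had 1 lower, with a median of -0.13 and log2 fold changes of -0.18 for the integrin Itgav, -0.36 for the endothelial phosphatase Ptprb and -0.33 for the glypican Gpc1. The 6 genes of ligand maturation, which encode proteases and, in Ccbe1, a secreted cofactor of VEGF-C processing, had 1 lower (Furin, -0.35) and a median of -0.12, with Pcsk7 at -0.07 and Adamts3 at -0.13. The 9 genes of hypoxia control of Vegfa had 1 higher and 1 lower and a median of 0.02, with the factor genes Epas1 at 0.02 and Hif1a at 0.32 and the oxygen sensor Egln1 at 0.21.

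A few list genes outside the naming rule were chosen after their values were seen. Nos3, the endothelial nitric oxide synthase that VEGFR2 activates, was at 23.9, 13.7 and 12.7 CPM in the knockout-labelled and 44.8, 33.3 and 41.7 CPM in the wild-type libraries. All 3 knockout-labelled animals were below wild type, as for Pgf and Flt4, with a log2 fold change of -1.25 (SE 0.25) and an adjusted p of 0.128 by edgeR. The semaphorin receptor Plxnd1 was at -0.51 (adjusted p = 0.185) and the early response gene Nr4a1 at -1.47 (adjusted p = 0.185 by edgeR), also without overlap. The prolyl hydroxylase genes Egln2 and Egln3, whose products mark hypoxia-inducible factors for removal, differed in sign at -1.30 and 1.35, with adjusted p-values of 0.167 and 0.236 by edgeR. Egln2 had no overlap between the groups. Egln3 did overlap, at 50.5, 191 and 111 CPM in the knockout-labelled and 67.9, 34.2 and 36.5 CPM in the wild-type libraries.

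**Figure D5:**
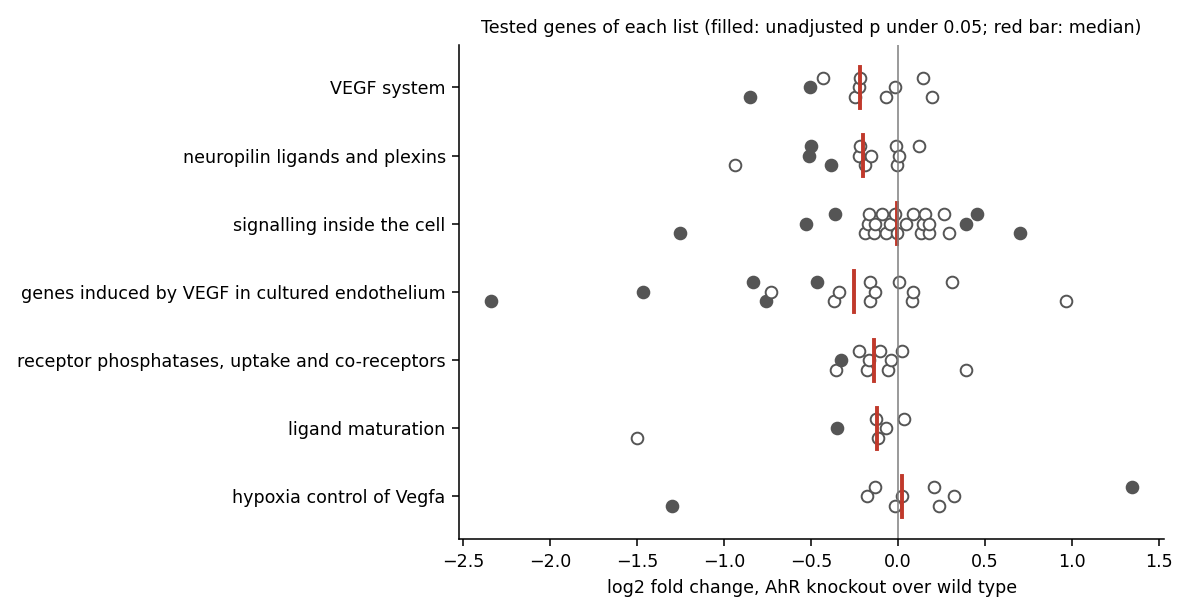
Log2 fold changes of the tested genes of the VEGF system and of 6 related lists, with 1 point per gene (filled where the unadjusted p was under 0.05) and a red bar at each list's median. The medians run from -0.25 for genes induced by VEGF in culture to 0.02 for hypoxia control of Vegfa, against 0.01 over all tested genes.

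Across the 6 libraries, the genes whose log2 CPM followed a member most closely by Pearson's r were picked from the 10428 genes whose average was 10 CPM or more, as a description with no test. The 6 points span both genotypes and share depth, dissection and marker differences, and the closest gene had an r of at least 0.973 for each member. Each closest gene was the highest of 10428 over 6 libraries, so a high r follows in part from the picking. For Pgf these were the matrix gene Cilp2 (r = 0.998), the actin-severing gene Gsn (r = 0.992) and the collagen gene Col1a1 (r = 0.988). For Flt4 they were Tmtc1 (r = 0.994), the elastin gene Eln (r = 0.994) and Tspan18 (r = 0.984). For Vegfa they were Ptov1, Creb3l1 and B3gnt1 (r = 0.995 to 0.999), for Kdr Wdr4, Rbm14 and Pkig (r = 0.988 to 0.993), and for Flt1 Pura, Zfp358 and Ensa. The closest gene to Nrp1 was Srp14, to Nrp2 Paqr9, to Vegfb Tpra1, to Vegfc Snx30 and to Figf Twsg1.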

How the data were processed

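Gene counts per animal were deposited by the authors, with TopHat, Bowtie and HTSeq as tools and mm10 as build per the submitters' processing notes. For versions, annotation and strand setting the entry is the same: not given in the sources used here. Whether reads over genes that overlap on opposite strands were counted or set aside as ambiguous is therefore not known. Among the members Nrp2 had such an overlap in GENCODE M21, with Gm29083, over 0 exon bases. The authors' deposited edgeR table holds log2 fold changes, log2 CPM, p-values and FDR values coded as wild type over knockout, and the sign was turned here.

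From the counts, edgeR 4.0.16 in R 4.3.3 was run with filterByExpr (minimum count 10, minimum total 15), TMM factors and the quasi-likelihood test with genotype as the only term. P-values were adjusted (Benjamini-Hochberg) over all 15796 tested genes, with 0.05 as the threshold of a call. The table's 5 tally rows were left out, and 27 names that read as dates were not named. CPM use TMM library sizes, and RPKM use merged exon lengths of GENCODE M21. Ratios used log2(CPM + 0.5). Gene counts per library were 18058725 to 28692624, which limits genes of low count such as Figf, and p-values measure the spread between these animals. The fit was tested on simulated data.

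Named genes were all 10 members, the 3 highest by mean CPM in each list with no call, the 2 highest of a marker list, and the 3 genes most like each member (mean CPM of at least 10). Members and lists were chosen with earlier results of these data known. The alternatives were limma-voom (limma 3.58.1), DESeq2 1.42.0, other scaling, filters, covariates, GC correction and left-out libraries. Of these, the RPE covariate and the fit on animals 2 and 3 were chosen after seeing the data.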

Additional observations from a re-analysis of the deposited data

How the results depend on the processing

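Of 200 member values under 20 alternatives each, 174 kept direction and side of the threshold, 7 passed it and 19 changed sign. All 7 were of Pgf or Vegfa. Against 8 genes called, the count was 15 with upper quartile factors, 22 with no filter, 16 with the CPM filter, 13 with limma-voom, 493 with DESeq2, 357 with the edgeR exact test, 1 with the sex covariate, 1 with the endothelium covariate, 26 with the corneal covariate, 48 with the pigment epithelium covariate and 874 with animals 2 and 3 only. Leaving out 1 library gave 0 to 795 genes and 0 to 2 members, and the 795 came without knockout-labelled animal 1. Members called were 1 with DESeq2, 1 with the exact test, 1 with the pigment epithelium covariate and 2 with animals 2 and 3 only. Members without overlap were 1 after GC correction, with no share of all tested genes to set beside it.

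Signs turned as follows on the log2 scale. With the endothelium covariate Vegfa was 0.032, Vegfb 0.095, Vegfc 0.30, Figf -0.22, Flt1 0.46, Kdr 0.055 and Nrp2 0.048. The values of this covariate did not overlap between the groups. With the corneal covariate Vegfc was 0.066, Figf -0.22 and Flt1 0.21. Flt1 was 0.10 with the pigment epithelium covariate, Vegfb 0.10 after GC correction and Nrp1 -0.053 with animals 2 and 3 only. Leaving out 1 library gave Nrp1 -0.037 to 0.29, Flt1 -0.23 to 0.14, Vegfc -0.20 to 0.076 and Figf -0.075 to 0.57. None of these members passed the threshold in those fits, and the cause was not tested.

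Animal numbers were not treated as pairs in the main fit. Same-numbered libraries correlated at -0.10 to -0.07 in their deviations from the group means. Such a correlation cannot settle whether the animals were paired, and animal 1 read as female in each group. With the animal number as a replicate block, 1 gene and 0 members were called and Pgf was at -0.84.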

Other observations

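The makeup of the ligand message per length was not part of a comparison. Of the RPKM summed over the 5 ligands, Pgf took 7.42%, 12.2% and 12.6% in the knockout-labelled libraries and 12.3% to 17.1% in the wild-type libraries. Vegfb took 53.3% to 57.9% and 46.0% to 54.2%, and Vegfa 25.5% to 34.3% and 30.3% to 34.2%. Of the RPKM summed over the 3 receptors, Flt4 took 8.19% to 10.4% in the knockout-labelled and 11.3% to 12.2% in the wild-type libraries, with no overlap. These shares were not corrected for GC content.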
